A study of Xenopus laevis with 9 samples.

Results

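The libraries described here are the 3 DMSO libraries, of 9 in the series, and they hold the transcripts of anterior explants of Xenopus laevis embryos that received no added retinoid. Wild-type embryos of 3 females were cut at stage 12.5 of Nieuwkoop and Faber (NF), the end of gastrulation, and the anterior portions were kept to NF stage 15, an early neurula with an open neural plate. These explants received DMSO, the solvent, for which the labels state 10 µM, and the other 6 libraries received 1 µM retinoic acid (RA) or 10 µM 4-oxo-RA, an oxidised form of RA. The labels do not tie a replicate number to a female, and they do not say whether replicates were separate cultures, so the spread between the libraries may in part be technical. The members were chosen by treatment alone, and the other 6 libraries enter only where they are named. The question addressed was which genes, tissues and gene copies were transcribed in these explants before any treatment contrast.

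At this stage the ectoderm has divided into neural plate, neural crest, placodes and epidermis, and transcription factors such as Otx2, Rax, Gbx2 and the Hox proteins mark positions along the head to tail axis. The neural plate forms where secreted antagonists from the underlying mesoderm and endoderm shield ectoderm from BMP signals, and Wnt, FGF and retinoic acid signals move the plate toward posterior fates. Xenopus laevis is an allotetraploid, a species that carries the genomes of a pair of extinct ancestors, and many of its genes are present as an L and an S copy, named for the long and short chromosome sets.

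Counts of the 3 libraries totalled 9404644, 20883648 and 18257026, and the lowest total belonged to replicate 1. Levels are given in CPM, a counts-per-million scale on the library total, always in the order of replicates 1, 2 and 3, and they are not divided by transcript length, so levels of different genes, or of an L and an S copy, compare counts only. A gene was called detected where it had at least 1 CPM in each of the 3 libraries. A count of 0 over all 3 libraries allows a level of up to 0.0618 CPM, a limit that covers counting error only. Log2 CPM of detected genes correlated between libraries with r from 0.968 to 0.976 across genes, which are not independent replicates. Between 887 and 1209 of the 16559 detected genes differed more than 2-fold between any pair of libraries. Skeletal muscle transcripts separated the 3 libraries, with summed levels that fell from replicate 1 to replicate 3, and are set out below beside the lists they touch.

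Of 58413 rows of the table, 16559 were detected, 28.3%, and 21419 had 0 counts in all 3 libraries. Rows with a gene symbol numbered 24124, of which 12285 were detected, 50.9%, and they held 89.1%, 89.2% and 89.0% of the counts. That 50.9% is the background against which the counts of detected members below are read. The median detected gene with a symbol stood at 21.5 CPM, and 100 genes of the whole table reached 1000 CPM on average. The 100 most abundant genes of each library held 23.6%, 21.9% and 24.4% of its counts.

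The genes with the most counts encoded RNA-binding proteins, translation factors, chaperones, chromatin proteins and keratins. Both copies of cirbp, which encodes a cold-inducible RNA-binding protein, led the table, with 10952, 9872 and 11424 CPM for cirbp.L and 8928, 7688 and 9032 CPM for cirbp.S. The elongation factor copy eef1a1o.S followed at 8188, 6439.8 and 9117 CPM. Its relative eef1a1.L had 8273, 6569 and 7243 CPM. All 4 were lowest in replicate 2. The heat shock protein gene hspa1l.S had 7124, 7268 and 7549 CPM. The high mobility group gene hmgb2.L, whose product bends DNA in chromatin, had 5824, 5301 and 6106 CPM. Keratin krt70.S stood at 4049.6, 5109 and 5161 CPM. Keratin krt7.L had 4005, 4219.9 and 4257 CPM, and both keratins were lowest in replicate 1. The 15 symbol-bearing genes with the highest means also included eef1a1.S, hspa8.L, hmgn1.S, hmgn1.L, the nucleolin gene ncl.S, the Y-box gene ybx1.S and the hnRNP gene hnrnpdl.L, with means between 3064 and 5901 CPM.

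The anterior origin given in the labels was checked against regional genes. Forebrain genes were detected for 28 of 38 members and eye field genes for 18 of 28. Posterior axis and tailbud genes were detected for 8 of 31 members, and Hox genes of groups 5 to 13, which mark the trunk and tail, for 0 of 41. Summed over their members, the forebrain list reached 948, 991 and 940.2 CPM and the eye field list 972, 1006 and 986 CPM. The list of Hox groups 5 to 13 reached 7.87, 3.21 and 7.34 CPM, and the posterior axis list 62.1, 56.9 and 85.9 CPM. Chosen copies of these regional genes are set out by library in the plot of regional genes.

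**Figure D1:**
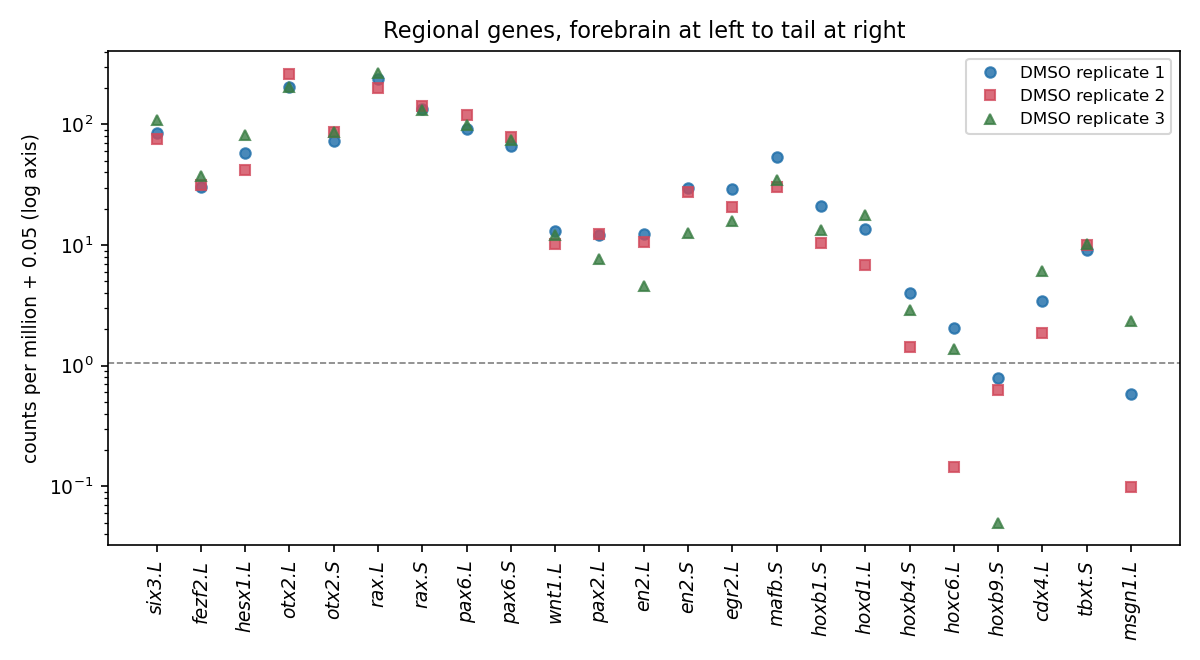
Levels of regional genes in CPM + 0.05 (log axis), 1 point per DMSO library, ordered from forebrain genes at left to trunk and tail genes at right. The dashed line is the detection threshold of 1 CPM. Of the copies plotted, those of six3, fezf2, hesx1, otx2, rax and pax6 lie above 10 CPM in all 3 libraries, and other copies, such as six3.S, which is listed at 0, are not drawn. The copies hoxc6.L, hoxb9.S and msgn1.L fall below 1 CPM in at least 1 library.

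Within the forebrain and eye field lists, the head factor otx2.L had 203, 261 and 204 CPM and otx2.S 72.4, 86.7 and 86.6 CPM. The retinal factor rax.L stood at 237, 202 and 266 CPM and rax.S at 134, 141 and 132 CPM. Levels of pax6.L, an eye and forebrain factor, were 91.4, 119 and 98.2 CPM. Each of these copies kept its highest value within 1.5-fold of its lowest. The anterior factor six3.L, which represses Wnt genes in the head, reached 84.6, 76.3 and 109 CPM. The forebrain factor fezf2.L had 30.3, 31.6 and 37.5 CPM. The pituitary and anterior plate factor hesx1.L had 57.7, 42.0 and 82.2 CPM, highest in replicate 3.

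At the boundary of midbrain and hindbrain, 20 of 26 genes were detected. The anterior hindbrain factor gbx2.1.L, whose border with Otx2 sets that boundary, had 72.7, 61.1 and 59.5 CPM. The gene for the signal of the boundary, fgf8.L, had 38.7, 41.5 and 30.5 CPM. The engrailed copy en2.S had 29.5, 27.3 and 12.7 CPM and en2.L 12.2, 10.5 and 4.49 CPM, and both were lowest in replicate 3. Of the hindbrain list, 24 of 32 genes were detected, with summed levels of 1675, 1595 and 1442 CPM. The rhombomere factor egr2.L had 29.2, 20.5 and 15.9 CPM. The hindbrain factor mafb.S had 53.5, 30.4 and 34.7 CPM, and both were highest in replicate 1. The ephrin receptor gene epha4.L, whose product keeps rhombomere cells apart, had 298, 281 and 215 CPM. The gene of a ligand of such receptors, efnb2.L, had 271, 288 and 286 CPM and varied less. The copies efnb2.L, epha4.L and efnb2.S, the last at 247, 249 and 236 CPM, led the sum of the hindbrain list.

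Hox genes of groups 1 to 4, which mark the hindbrain, were detected for 11 of 22 members, a share close to the background. They summed to 147, 102 and 126 CPM. Of these, hoxb1.S ranged over 21.1, 10.4 and 13.3 CPM and hoxd1.L over 13.6, 6.80 and 17.6 CPM, each lowest in replicate 2. Further back, hoxb4.S had 3.93, 1.39 and 2.85 CPM. The trunk gene hoxc6.L had 2.02, 0.0958 and 1.31 CPM and hoxb9.S 0.744, 0.575 and 0 CPM, so neither reached 1 CPM in every library. Some posterior genes did. The caudal factor cdx2.L had 13.9, 12.6 and 22.2 CPM. The notochord and tailbud factor tbxt.S had 9.04, 9.96 and 10.2 CPM. The ventrolateral signal wnt8a.L had 4.998, 4.69 and 4.87 CPM. The presomitic factor msgn1.L, with 0.532, 0.0479 and 2.30 CPM, was above 1 CPM in replicate 3 alone.

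Neural plate progenitor genes were detected for 58 of 73 members, with summed levels of 4166, 3779 and 3597 CPM. The RNA-binding protein gene msi1.L, a progenitor gene, had 320.5, 303 and 309 CPM. Another, lin28a.L, whose product blocks let-7 processing, had 289, 336 and 281 CPM. The neural SoxB1 factor sox3 had 284, 206 and 201 CPM from sox3.L and 276, 219.8 and 196 CPM from sox3.S. Its relative sox2.L had 111, 74.4 and 79.3 CPM, and all 3 copies were highest in replicate 1. Over the whole sox family, 22 of 32 genes were detected, and over the zic family, transcription factors of the neural plate border, 9 of 10. Among the latter zic2.L had 84.5, 83.9 and 89.8 CPM and zic1.S 51.6, 29.4 and 50.9 CPM.

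Genes of primary neurons, the first nerve cells to leave the cycle, were detected for 23 of 42 members, 54.8% against a background of 50.9%. Their summed level was 501, 435 and 303 CPM, 1.65 times as high in replicate 1 as in replicate 3. The intermediate filament gene prph.L had 62.2, 70.8 and 21.0 CPM. The neuronal tubulin gene tubb2b.S had 42.4, 26.4 and 12.7 CPM. The neuronal RNA-binding protein gene elavl3.L had 32.0, 27.1 and 15.4 CPM. Each of these 3 neuronal genes was lowest in replicate 3. The Notch ligand gene dll1.L, which marks prospective neurons, was more even at 51.0, 45.4 and 41.3 CPM. Another member of the list, isl1.L, had 50.9, 42.4 and 43.2 CPM and was lowest in replicate 2.

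Neural crest genes were detected for 36 of 43 members, and the highest and lowest of their sums differed 1.02-fold, at 5445, 5361 and 5415 CPM. That sum was led by genes also active elsewhere in the ectoderm, namely the complement gene c3.L at 2109, 2192 and 2073 CPM and id3.L, an inhibitor of bHLH factors, at 580.1, 568 and 636 CPM. The crest specifier snai2.L had 117, 108 and 141 CPM. Another specifier, foxd3.L, had 36.6, 26.4 and 32.4 CPM. The crest and placode factor sox9.S had 64.9, 59.8 and 71.2 CPM, and none of these 3 was lowest in replicate 3. A later crest gene, sox10.L, had 49.2, 46.4 and 22.1 CPM, with the lowest value in replicate 3. Genes of the preplacodal ectoderm and placodes, which form sense organs and cranial ganglia, were detected for 31 of 44 members. Among them gata2.L, an ectodermal factor, had 225, 207 and 249 CPM. The border factor dlx3.S had 142, 131 and 135 CPM. The placode factor six4.L had 93.4, 103 and 102 CPM, and the sum of the list was 1277, 1388 and 1289 CPM.

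Epidermal genes were detected for 42 of 65 members and summed to 25000.0, 26997 and 27993 CPM. The larval keratin krt12.5.S stood at 3084, 2872 and 3205 CPM. The embryonic epidermal keratin krt12.4.L had 2034, 1909.96 and 2397 CPM. The basal epidermal factor tp63.L had 89.0, 165 and 109 CPM and was highest in replicate 2. The lists for other cells of the Xenopus epidermis were read in turn. Goblet and small secretory cell genes were detected for 10 of 23 members, a smaller share than the background. The intelectin gene itln1.L, a secreted lectin of goblet cells, had 769, 603 and 1001 CPM. Multiciliated cell genes were detected for 30 of 44. The ciliogenic factor foxj1.S had 61.9, 53.9 and 54.6 CPM. The regulator of centriole amplification mcidas.S had 58.3, 39.0 and 69.7 CPM and was lowest in replicate 2. Of the list for ionocytes, cells that move ions across the skin, 15 of 25 genes were detected. The ionocyte factor foxi1.L had 62.4, 53.8 and 83.3 CPM. The carbonic anhydrase gene ca12.L had 80.7, 62.7 and 85.9 CPM, and both were highest in replicate 3.

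A pair of anterior ectodermal glands was also present. Cement gland genes were detected for 13 of 16 members with summed levels of 4487, 6689 and 5255 CPM, highest in replicate 2. The gland gene ag1 had 1198, 1766 and 1328 CPM from ag1.S and 1088, 1688 and 1237 CPM from ag1.L. Its relative agr2.L had 615, 1284 and 945 CPM, and all 3 copies were highest in replicate 2. The head ectoderm factor pitx1.L had 104, 136 and 114 CPM. The otx-related factor crx.L had 100.2, 104 and 144 CPM. Hatching gland genes were detected for 11 of 14 members. The astacin protease gene astl2d.1.L had 823, 897 and 673 CPM, lowest in replicate 3.

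**Figure D2:**
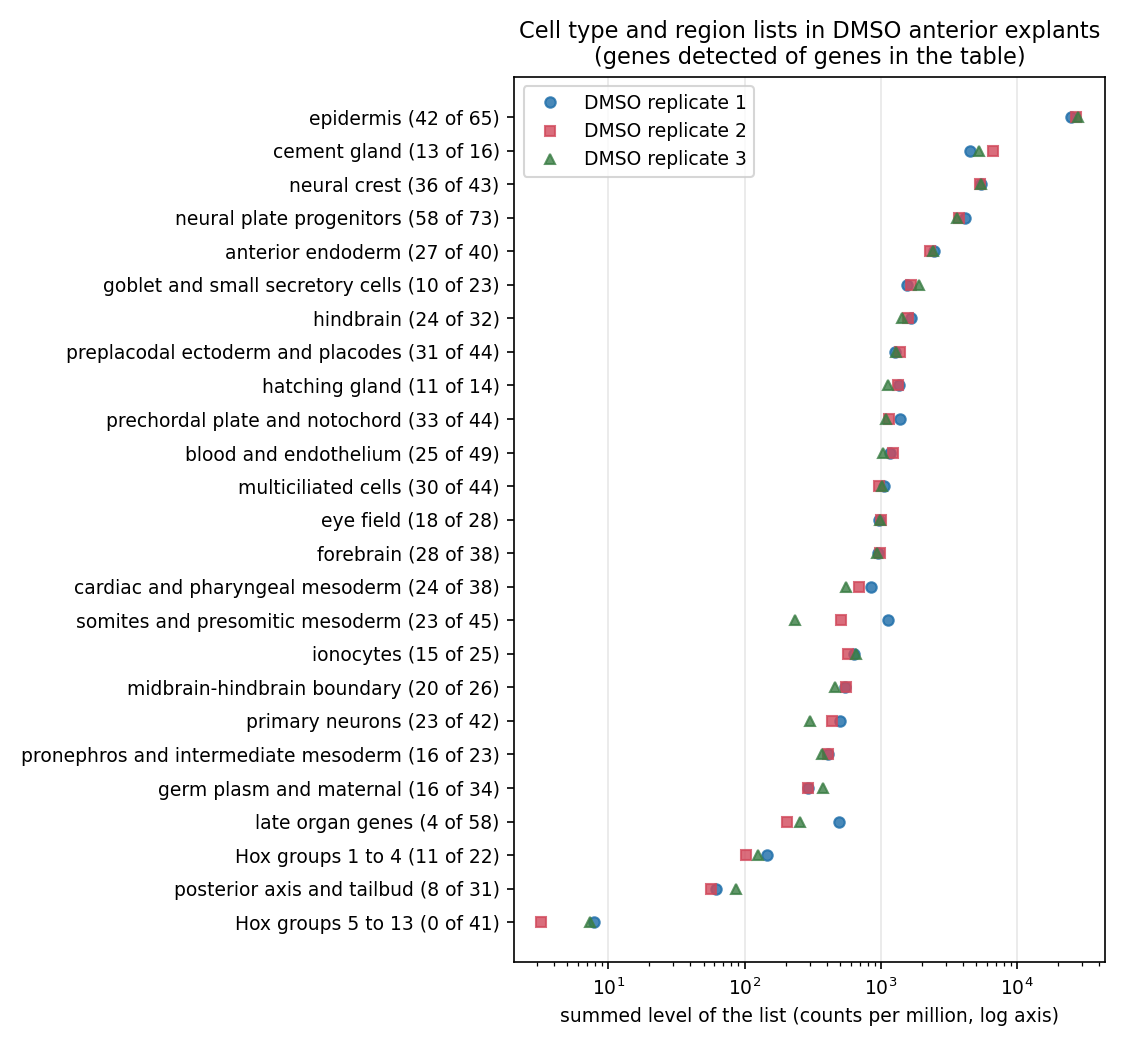
Summed level of each cell type and region list in CPM (log axis), 1 point per DMSO library, with the genes detected of the genes in the table in parentheses. Lists of more or longer genes can sum higher, so the spread of the 3 points within a row is what compares. The points of the somite list spread 4.82-fold, and those of the neural crest list 1.02-fold.

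Genes of the layers under the neural plate were detected as well. Prechordal plate and notochord genes were detected for 33 of 44 members. The BMP antagonist chrd.1.S had 125, 108 and 106 CPM. The prechordal factor gsc.L had 29.5, 12.1 and 27.9 CPM, lowest in replicate 2. The midline signal shh.L had 25.4, 13.8 and 12.6 CPM. The gene for a collagen of the notochord and somites, col2a1.L, had 139, 68.7 and 45.6 CPM, and both were highest in replicate 1. Anterior endoderm genes were detected for 27 of 40 members. Their sum was led by a2m.S, a protease inhibitor gene, at 1739, 1547 and 1536 CPM. The endoderm factor sox17a.S had 56.5, 56.4 and 66.5 CPM. The liver and foregut factor hhex.L had 7.97, 10.8 and 5.37 CPM.

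Cardiac and pharyngeal mesoderm genes were detected for 24 of 38 members. The heart field factor nkx2-5.S had 38.6, 35.4 and 28.2 CPM. The pharyngeal factor tbx1.L had 65.4, 73.7 and 38.7 CPM, lowest in replicate 3. A factor of the heart tube, tbx5.L, had 0.425, 0.287 and 0.219 CPM and was below the threshold in each library. Pronephros and intermediate mesoderm genes were detected for 16 of 23, with the kidney factor pax8.L at 21.9, 17.2 and 10.7 CPM. In the blood and endothelium list 25 of 49 genes were detected, a share close to the background. The early myeloid gene mpo.S had 255, 268 and 138 CPM. The early myeloid factor spib.L had 97.2, 124 and 63.5 CPM, and both were lowest in replicate 3. The red cell factor gata1.L had 0, 0.479 and 0.0548 CPM and the globin copy hba1.S 0, 2 and 0 counts. Germ plasm and maternal genes were detected for 16 of 34. The germ cell helicase gene ddx4.L had 84.0, 97.3 and 171 CPM. The germ cell RNA-binding protein gene dazl.L had 2.34, 1.68 and 3.51 CPM, and both were highest in replicate 3.

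Genes that mark organs of later stages were detected for 4 of 58 members. Both albumin copies had 0 counts. The rhodopsin copy rho.S had 0, 3 and 1 counts. The lens crystallin cryaa.S had 0.532, 1.48 and 0.986 CPM. Most counts of that list came from 4 genes, of which tf.L was below 1 CPM in replicate 2 and so was not detected. These were ptgds.S, a lipocalin-type prostaglandin synthase gene, at 78.6, 75.2 and 72.9 CPM, the transferrin gene tf.L at 62.6, 0.814 and 141 CPM, and the muscle genes myh4.L, for a myosin heavy chain, at 207, 68.1 and 11.01 CPM and ckm.L, for a creatine kinase, at 127, 48.5 and 19.7 CPM. The sum of the list, 490.4, 203 and 255 CPM, was 2.41 times as high in replicate 1 as in replicate 2. In these bulk libraries fewer cells of a type and less RNA per cell cannot be told apart.

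Somite and skeletal muscle genes separated the 3 libraries more than any other list did. Somite and presomitic genes were detected for 23 of 45 members, a share close to the background, and their sum of 1138, 507 and 236 CPM differed 4.82-fold. The muscle determination factor myod1.S had 28.4, 13.3 and 4.16 CPM. The sarcomeric actin gene actc1.L had 271, 91.5 and 19.1 CPM. The myosin light chain gene mylpf.S had 186, 77.3 and 17.1 CPM. All 3 were ordered with replicate 1 highest and replicate 3 lowest. A list of 53 skeletal muscle contractile genes, chosen after these values were seen, summed to 2456, 918 and 238 CPM. Of the 30 with a mean level above 1 CPM, 26 lay in that order, as 21.8% of 13107 symbol genes at that level did. The median ratio of replicate 1 to replicate 3 over these genes was 9.27. Both values describe a list chosen with this order known and are no test of it. A mean above 1 CPM can also rest on replicate 1 alone. The same list summed to 1741, 154 and 77.0 CPM in the RA libraries and to 1708, 402 and 596 CPM in the 4-oxo-RA libraries, highest in replicate 1 in each.

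**Figure D3:**
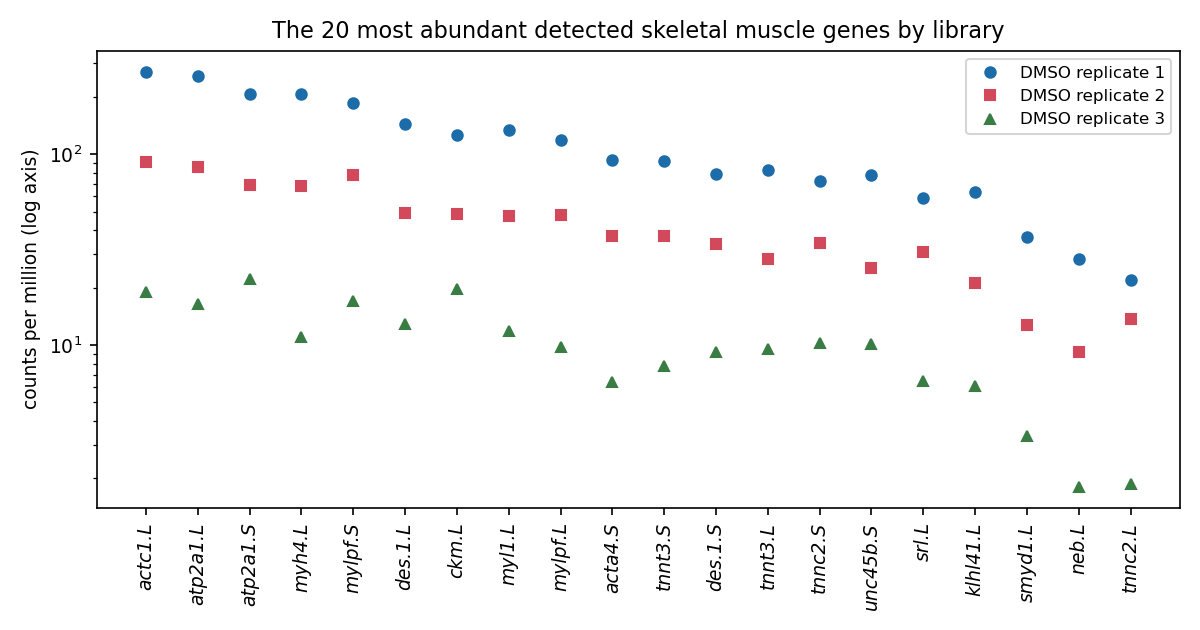
Levels of the 20 most abundant detected skeletal muscle genes in CPM (log axis), 1 point per DMSO library. In each of the 20 genes replicate 1 is highest and replicate 3 lowest.

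Of the 49 lists, 43 stayed within 1.5-fold between libraries. Besides the somite list, those beyond it were primary neurons, late organs, the posterior axis, Hox groups 5 to 13, and cardiac and pharyngeal mesoderm, at 845, 687 and 556 CPM. The sums of primary neurons, late organs and cardiac mesoderm were highest in replicate 1, as was the muscle list. So was the sum of Hox groups 5 to 13, at 7.87, 3.21 and 7.34 CPM, with its lowest value in replicate 2. None of the genes of that Hox list was detected, so its order rests on few counts. The sum of the posterior axis was highest in replicate 3. The late organ list holds the muscle genes myh4.L and ckm.L. The cardiac list holds the sarcomeric actin gene actc1.L, at 271, 91.5 and 19.1 CPM, its only member above 100 CPM on average. The part of muscle genes in the spread of these lists was not tested. Over 10048 genes whose mean reached 10 CPM, the median coefficient of variation (CV) was 0.118, against 0.0414 from counting alone. A CV above 0.5 was found in 188 of them, 1.87%, of which 87 were highest in replicate 1 and lowest in replicate 3, an order held by 20.4% of all 10048. Of the 20 genes with the largest CV among those with a symbol, 11 were in the muscle or somite lists. The muscle list was chosen after these values were seen, so this overlap is no independent result. Rows without a symbol were not ranked, among them LOC108697896 at 0, 111 and 0.0548 CPM. Common dispersion corresponded to a biological CV of 0.221, and to 0.217 without the muscle list.

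Some variable genes followed the replicate number in every treatment and were no muscle genes. The transferrin gene tf.L, whose product carries iron, had 35.4, 1.052 and 98.1 CPM in RA and 123, 1.052 and 85.0 CPM in 4-oxo-RA, so beside the DMSO values above replicate 2 was lowest in all 3 treatments. The nucleotide sugar transporter gene slc35a3.1.L had 1.38, 4.93 and 46.6 CPM in DMSO. The purine synthesis gene adsl.L had 6.38, 3.64 and 45.4 CPM, and both were highest in replicate 3. The autophagy gene gabarapl1.S, at 35.2, 5.22 and 2.68 CPM, was highest in replicate 1. Whether these genes differ between the 3 females was not tested, since no label links a library to one.

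The genes that make and remove retinoic acid were read next, since no retinoid had been added. Of the list for synthesis, breakdown and binding, 19 of 35 genes were detected, 54.3% against a background of 50.9%. The list summed to 1345, 1191 and 1151 CPM. The retinol dehydrogenase gene rdh10.L, for the first oxidation step, had 246, 254 and 301 CPM. The retinaldehyde dehydrogenase gene aldh1a2.L, for the second step, had 102, 74.7 and 86.1 CPM. The related aldh1a1.L had 0.851, 2.39 and 2.96 CPM, and aldh1a3.L had 3, 4 and 2 counts. The retinaldehyde reductase gene dhrs3.L, whose product returns retinaldehyde to retinol, had 44.6, 23.4 and 38.5 CPM. The gene for storage as retinyl esters, lrat.L, had 32.7, 47.0 and 39.2 CPM.

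Among the Cyp26 hydroxylases that clear retinoic acid, cyp26c1.S had 148, 169 and 119 CPM and cyp26c1.L 73.0, 49.9 and 20.1 CPM. The cyp26a1.L copy had 19.99, 15.0 and 26.2 CPM and cyp26a1.S 18.4, 12.35 and 15.9 CPM. The cyp26b1.L copy had 0, 2 and 2 counts and cyp26b1.S 2, 0 and 0 counts, so cyp26c1 and cyp26a1 held the counts of this family. The binding protein gene crabp2.L, which carries retinoic acid to its receptors, stood at 399.9, 269 and 236 CPM, highest in replicate 1. Receptors and coregulators were detected for 17 of 24 members. Of the retinoic acid receptor genes, rarg.S had 164, 134 and 139.6 CPM. Its relative rara.L had 16.1, 14.1 and 13.4 CPM, and rarb.L, at 0.957, 0.622 and 0.876 CPM, stayed below the threshold. Of the partner receptors, rxrb.L had 131, 143 and 138 CPM. The second of them, rxra.L, had 5.64, 10.9 and 12.6 CPM, and rxrg.L, at 0.425, 0.431 and 0.712 CPM, was again below the threshold. The corepressor genes tle1.L, at 141, 140.1 and 119 CPM, and ncor1.L, at 88.1, 95.1 and 79.9 CPM, were present in all 3 libraries at similar levels.

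The Wnt, FGF and BMP pathways were read by role, with no test between lists. Wnt ligands were detected for 14 of 33 members, Wnt receptors for 20 of 28 and secreted Wnt antagonists for 17 of 24. Among ligand genes wnt11b.L had 42.7, 48.8 and 53.1 CPM and wnt4.L 24.9, 23.0 and 14.7 CPM. Among receptor genes the most counts fell to fzd7.L at 303, 293 and 281 CPM. The gene of a planar polarity co-receptor, ptk7.L, had 164, 174 and 142 CPM. The antagonist gene sfrp2.S had 235, 259 and 129.6 CPM, lowest in replicate 3. FGF ligands were detected for 4 of 33 members, and FGF receptors and feedback genes, which share a list, were detected for 28 of 32. The receptor gene fgfr1.L had 221, 221 and 207 CPM. The receptor gene fgfr4.L had 192, 191 and 213 CPM. The gene of a membrane partner of the receptors, flrt3.L, had 167, 164 and 136 CPM.

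BMP and TGF-beta ligands were detected for 15 of 43 members, receptors and SMADs for 24 of 31, and secreted BMP antagonists for 18 of 31. The ligand gene bmp7.1.L had 108, 177 and 153 CPM and bmp4.L 43.2, 61.9 and 63.7 CPM, both lowest in replicate 1. The shared signal transducer smad4.1.S reached 1072, 769 and 882 CPM. Notch pathway genes were detected for 43 of 61 members. The receptor gene notch1.L had 80.4, 82.9 and 78.1 CPM and notch3.L 105, 112 and 113 CPM. The glycosyltransferase gene lfng.S, whose product modifies the receptors, had 146, 134 and 105 CPM, lowest in replicate 3. Hedgehog pathway genes were detected for 21 of 29 members. The transducer gene smo.L had 118, 113 and 107 CPM. The transcription factor gene gli3.L had 102, 106 and 90.3 CPM. Forkhead factors, a family with members in all 3 germ layers, were detected for 48 of 81 members.

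Genes that most cells use were read as further lists. Ribosomal proteins were detected for 118 of 135 members, translation factors for 73 of 90, splicing and RNA-binding genes for 77 of 96, and proteasome genes for 48 of 68. Cell cycle and replication genes were detected for 56 of 67, histones and variants for 9 of 10, cytoskeleton genes for 29 of 39 and oxidative phosphorylation genes for 75 of 121. Ribosomal protein genes summed to 43083, 45107 and 42732 CPM and cell cycle genes to 6968, 6693 and 7144 CPM. The glycolysis list, with 21 of 35 detected, summed to 1257, 909 and 915 CPM. Its highest sum was in replicate 1, where the glycolytic genes gapdh.S at 235, 111 and 70.1 CPM and eno1.L at 122, 52.1 and 32.8 CPM were highest too, beside the muscle list. The other copy, gapdh.L, ran the other way at 25.4, 29.4 and 44.3 CPM. Of the 49 lists, 40 had a detected share above the 50.9% of all symbol genes. The other lists were both Hox lists, the posterior axis, late organs, germ plasm, goblet cells and the ligands of the Wnt, FGF and BMP families. Since the lists were chosen with earlier results of these data known, the count of 40 describes them and is no test.

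The L and S copies were then compared as pairs. The table held 8974 symbols or identifiers with a row for each copy, and these rows took 69.9%, 69.6% and 69.7% of the counts. Both copies were detected in 2851 pairs, the L copy alone in 1835, the S copy alone in 1323 and neither in 2965. Over all pairs the L copies held 53.3%, 53.6% and 53.5% of paired counts, a mean of 53.5% ± 0.154 (SD, n = 3). Of copies without a partner in the table, 2577 of 5516 L genes, 46.7%, and 903 of 2114 S genes, 42.7%, were detected. For paired copies the shares were 52.2% for L and 46.5% for S, and no test was made of these shares.

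Counts of the copies were tested within each library with edgeR's quasi-likelihood test, Benjamini-Hochberg adjusted over 6377 pairs with enough counts, with p-values that rest on the spread of 3 libraries alone. The L copy was higher in 3274 pairs, 51.3%, the S copy in 2298, 36.0%, and 805 did not pass the adjusted p of 0.05. With a difference of at least 2-fold besides, the counts were 2889, 45.3%, and 2008, 31.5%. The median difference was 0.67 log2 toward L. Among the 2851 pairs with both copies detected, L was higher in 1340, 47.0%, and S in 908, 31.8%, with a median of 0.32. These differences compare counts, and how far they reflect transcript length, mapping of shared reads or the annotation of each copy was not tested.

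**Figure D4:**
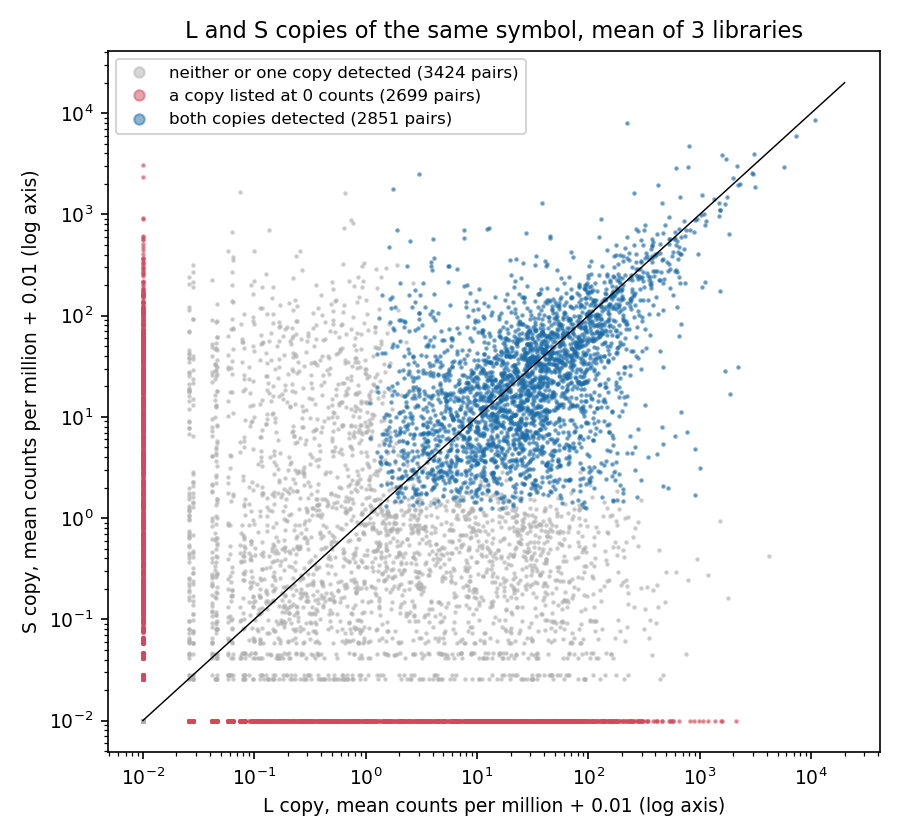
Mean level over 3 libraries of the L copy (x axis) and the S copy (y axis) of each pair, in CPM + 0.01 (log axes), 1 point per pair. The line marks equal counts, and pairs with a copy listed at 0 (2699 pairs) form the edges. The other classes are pairs with both copies detected (2851) and the rest (3424), which include pairs at 0 in both copies.

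A copy with 0 counts in all 3 libraries beside an expressed partner was frequent. Where the higher copy reached at least 100 CPM, 202 of 1097 pairs had such a partner, 18.4%, of which 124 were S copies and 78 L copies, and 163 of the 202 also had 0 counts in all 9 libraries. At 1 to 10 CPM the share was 31.0%, 586 of 1893 pairs. Copies listed at 0 included copies of genes that every cell uses, such as the splicing factor gene prpf8.L, the translation factor gene eif5a.S, the ribosomal protein gene rpl8.L and the polymerase gene polr2a.L. Of 715 copies at 0 whose partner reached 20 CPM, 648 were protein-coding and 0 pseudogenes in the RefSeq annotation of the v10.1 assembly, which may not be the one counted, and 65 had no row there. The cause was not tested, and a copy at 0 is given here only as listed at 0.

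Several head and epidermal genes had a single counted copy. For six3, 90.1 CPM on average lay in L and six3.S was listed at 0. The same held for the epidermal keratin krt12.4, with L counts at least 34261-fold above a limit of 3 counts over the group. Keratin krt12.5 was the reverse, with S counts at least 49166-fold above that limit and krt12.5.L listed at 0. The limit covers counting error only, and whether these folds of counts reflect expression of the copies was not tested. Other pairs with the L copy alone were otogl2 at 1488, 1538 and 1653 CPM, the RNA-binding gene ilf2 at 1649, 1401 and 1675 CPM, and the splicing factor gene srsf2 at 1463, 1187 and 1465 CPM. Pairs with the S copy alone included the adhesion gene cdh1, which encodes E-cadherin, at 584, 631 and 638 CPM, and the splicing factor gene prpf8 at 891, 915 and 926 CPM.

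Large differences were also found where both copies had counts. The nuclear lamina gene lmnb1 had 904, 830.03 and 979 CPM from L and 1.49, 2.06 and 1.48 CPM from S, log2 9.03 ± 0.15 (SE; adjusted p = 5.06e-09). The hnRNP gene hnrnpa3 had 2.66, 1.48 and 1.15 CPM from L and 1826, 1723 and 1821 CPM from S, log2 −10.09 ± 0.18 (SE; adjusted p = 5.93e-09). The snoRNP gene nop56 lay toward L, log2 8.30 ± 0.10 (SE; adjusted p = 1.97e-09), and keratin krt8.1 toward S, log2 −9.83 ± 0.29 (SE; adjusted p = 3.62e-08). Among the pairs with the most counts differences were smaller. The cirbp copies differed by log2 0.33 ± 0.03 (SE; adjusted p = 8.56e-06), and hmgb2 by log2 0.97 ± 0.05 (SE; adjusted p = 7.83e-07), both toward L. With TMM scaling of the 6 columns of copies, which lowered the median ratio of all pairs by 0.42, the cirbp difference reversed to −0.087 (adjusted p = 0.255), and with DESeq2 the cirbp ratio stayed at 0.33 with an adjusted p of 0.115. By contrast the eef1a1o copies differed by log2 −5.16 ± 0.07 (SE; adjusted p = 2.20e-09), toward S.

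Regional and signalling genes divided their counts between the copies in different ways. Toward L lay otx2, log2 1.44 ± 0.11 (SE; adjusted p = 4.29e-06), rax, log2 0.78 ± 0.11 (SE; adjusted p = 0.000241), and the crest factor snai2, log2 3.75 ± 0.14 (SE; adjusted p = 8.60e-08). Toward S lay chrd.1, log2 −1.29 ± 0.14 (SE; adjusted p = 3.38e-05), foxj1, log2 −1.57 ± 0.17 (SE; adjusted p = 4.38e-05), and sox9, log2 −1.48 ± 0.18 (SE; adjusted p = 8.07e-05). The test did not separate the copies of sox3, log2 −0.01 ± 0.08 (SE; adjusted p = 0.947), of notch1, log2 0.05 ± 0.12 (SE; adjusted p = 0.726), or of zic2, log2 0.04 ± 0.12 (SE; adjusted p = 0.756). These last 3 differences were smaller than their standard errors with library totals. With TMM scaling in edgeR's test they lay toward S at −0.43, −0.37 and −0.38 (adjusted p = 0.00716, 0.0254 and 0.0248). That scaling reduces any general difference between L and S columns, and it moved the median ratio of all pairs by −0.42. The turn of near-even pairs toward S follows from it and is no separate result. In the retinoid pathway rdh10, log2 2.75 ± 0.12 (SE; adjusted p = 2.35e-07), and aldh1a2, log2 2.86 ± 0.30 (SE; adjusted p = 3.57e-05), lay toward L, while rarg, log2 −6.47 ± 0.16 (SE; adjusted p = 1.82e-08), and cyp26c1, log2 −1.77 ± 0.26 (SE; adjusted p = 0.000256), lay toward S. The cyp26a1 copies did not pass the test, log2 0.38 ± 0.20 (SE; adjusted p = 0.106).

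By list, the neural crest had 15 pairs toward L and 5 toward S of 21 tested, the forebrain 11 and 3 of 17, the eye field 10 and 2 of 14, and the Hedgehog pathway 10 and 2 of 13. Of 15 pairs of FGF receptors and feedback genes, 11 lay toward L and 2 toward S. BMP and TGF-beta receptors and SMADs ran the other way, with 4 toward L and 8 toward S of 12, and so did somite genes, with 4 and 10 of 17. Neural plate genes had 10 and 11 of 32 and hindbrain genes 6 and 6 of 14. Ribosomal protein pairs had 28 toward L and 23 toward S of 57, with an L share of 50.3% ± 0.29 of their counts (SD, n = 3). Splicing genes had 19 and 18 of 41 and oxidative phosphorylation genes 22 and 24 of 48. Each of these counts is set beside 51.3% toward L and 36.0% toward S over all tested pairs, and none was tested against it. With TMM scaling, ribosomal proteins turned to 18 toward L and 29 toward S, splicing genes to 14 and 24, neural plate genes to 6 and 15 and hindbrain genes to 2 and 7, while the Hedgehog pathway had 9 and 2 and the BMP and TGF-beta receptors and SMADs 3 and 8. The lean of the neural crest list shrank to 10 toward L and 6 toward S. A move toward S is built into that scaling, which reduces any general difference between L and S columns. All these counts by list include pairs with a copy listed at 0 or not detected. Among pairs with both copies detected, 47.0% lay toward L and 31.8% toward S. There the neural crest had 10 toward L and 4 toward S of 15. The forebrain had 5 and 1 of 9, and the eye field 7 and 0 of 7. Somite genes had 2 and 4 of 8, splicing genes 9 and 13 of 26 and neural plate genes 8 and 5 of 23. Oxidative phosphorylation genes turned to 7 and 4 of 13.

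**Figure D5:**
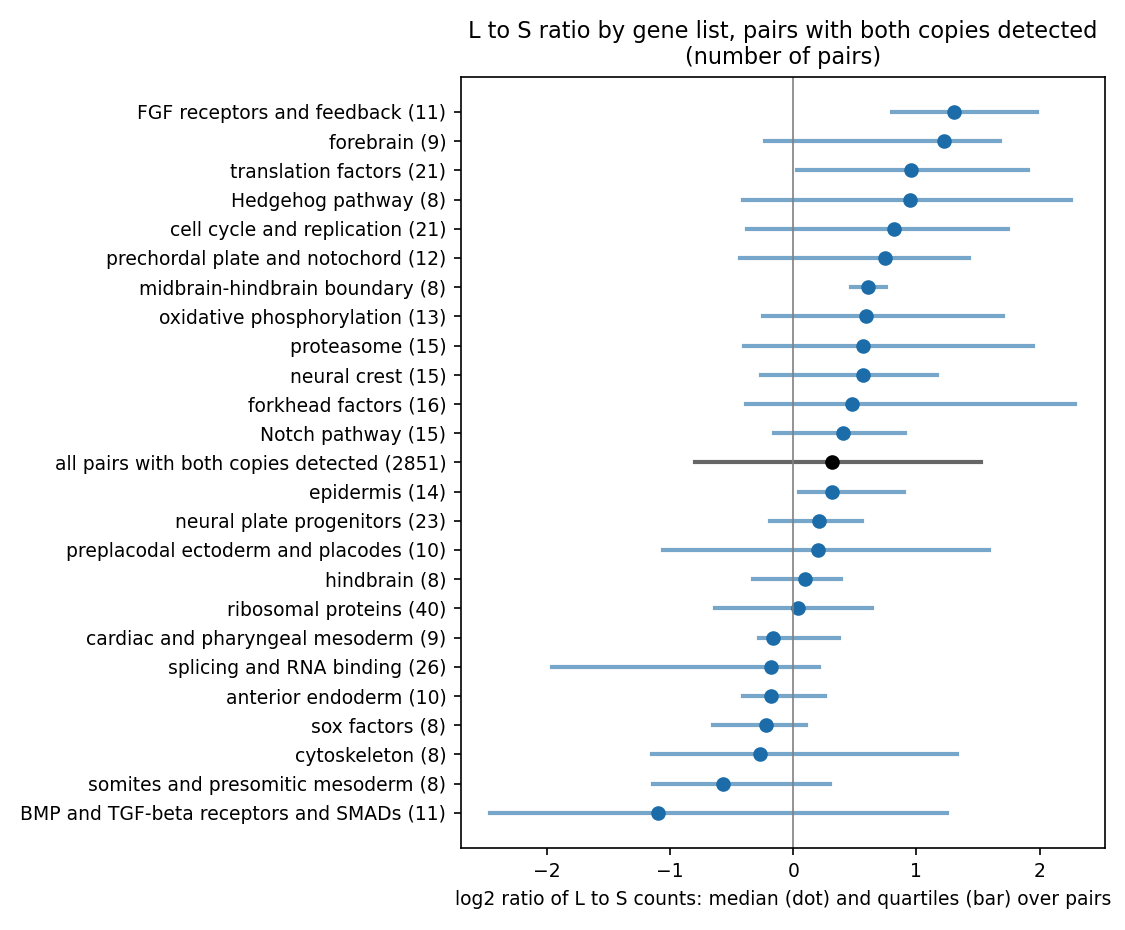
Log2 ratio of L to S counts for pairs with both copies detected, by list (number of pairs in parentheses), as the median (dot) and quartiles (bar) over pairs. All 2851 such pairs have a median of 0.32, FGF receptors and feedback genes 1.31, and BMP and TGF-beta receptors and SMADs −1.10.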

How the data were processed

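Messenger RNA of the explants was sequenced from stranded libraries, per the labels' protocols. The authors deposited raw counts, 1 whole number per gene and library, without normalization. STAR 2.7.3 is the aligner that the submitters' processing notes name. Counter, genome build, annotation and the treatment of reads shared by near-identical copies are not given in the sources used here, and values of single copies of such families are uncertain. The members, gene lists and tests were chosen with earlier results of these data known.

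CPM were computed from library totals, with no scaling factor. A total of 49 lists with 819 entries, 756 of them in the table, were matched by symbol to both copies, and a gene can stand in several lists. A skeletal muscle list was added after values were seen. A list's level is the sum of its CPM. Copies were compared with edgeR 4.0.16 in R 4.3.3 (quasi-likelihood test) on counts, with the library as a block, since both copies come from the same library, library totals as size, edgeR's own filter on low counts and Benjamini-Hochberg adjustment at 0.05. Each SE of a log2 ratio is the size of that ratio divided by the square root of the test's F value, and is not a separate estimate. The edgeR script was tested on simulated counts. These held no general lean toward L and no copies set to 0, so they do not bear on those features of the data.

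Genes were named by rule among rows with a symbol. The rule took the 15 most abundant, the 3 most abundant of each list and the 6 most variable. It also took the largest ratios of copies each way with a sum of at least 10 CPM, and a set of regional and retinoid genes. Others were chosen after their values were seen, and some genes that the rule names are left out. Alternatives were TMM scaling, DESeq2 1.42.0, limma 3.58.1, other thresholds and filters, thinned counts, no block, and each replicate left out.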

Additional observations from a re-analysis of the deposited data

How the results depend on the processing

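No count of detected genes or of lists above the background moved by more than 1.5 times: 16559 genes became 16591 with TMM scaling, 16445 with thinned counts, 18731 at 0.5 CPM and 14433 at 2 CPM, and 16974 to 17199 without 1 replicate, and 40 lists became 37 to 41. Pairs with L or S higher, 3274 and 2298, numbered 1485 and 1003 with at least 10 counts in each column, where 3051 pairs were tested. Of the main calls, 1340 and 908 lay among the 2851 pairs with both copies detected, which were not tested anew. Pairs with L or S higher numbered 3178 and 2207 with DESeq2, 2918 and 2601 with TMM, and 3070 to 3253 and 2130 to 2275 without 1 replicate. Without the replicate block, a pairing given by the shared library, they numbered 3257 and 2270, and of the 5572 calls 98 were lost and 53 gained. With TMM, 311 calls were lost, 45 reversed in sign and 300 were gained, and the L share of calls went from 58.8% to 52.9%. TMM reduces any general difference between L and S columns, so this fall of the L share is built into it. With DESeq2, 201 were lost and 14 gained. Without replicate 2, 326 of the 5482 calls still tested were lost and 44 gained. The L share of 53.5% became 53.6% without ribosomal proteins and 55.5% as the median over the 2851 pairs with both copies detected. With TMM the ratios reversed to −0.087 for cirbp, −0.10 for eef1a1, −0.20 for hnrnpa1, −0.15 for hmgn2, −0.37 for notch1, −0.38 for zic2 and −0.039 for cyp26a1. Without 1 replicate each, the near-even ratios crossed 0, from −0.029 to 0.039 for sox3, −0.016 to 0.13 for notch1 and −0.035 to 0.091 for zic2, each reversed without replicate 2. The calls of cirbp, eef1a1, hmgn1, hnrnpa1 and hmgn2 were lost with DESeq2 at log2 ratios equal to 2 decimals (adjusted p from 0.111 to 0.361), and that of hnrnpa1 without the block (adjusted p = 0.232). Apart from the TMM shift, the causes of these changes were not tested. An offset for coding length was not run, as no copy lengths were used here. With 3 libraries, genes below about 1 CPM rest on few counts in replicate 1.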
